A study of Mus musculus with 8 samples.

Results

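The 45 genes described here make the machinery that copies the genome: they build and license replication origins, unwind and copy the DNA, and supply its building blocks. They were chosen by name, with earlier results of these data known. They are the rows of the count table whose Ensembl mouse gene IDs belong to the listed replication genes, 45 of the 21859 genes in the table. All 45 had enough counts to be tested. They were divided by step into origin recognition and licensing (7 genes), the MCM2-7 helicase (6), helicase activation (7), the sliding clamp and its loader (6), DNA polymerase alpha-primase (4), DNA polymerases delta and epsilon (5), the single-strand binding protein RPA (3), Okazaki fragment maturation (2), deoxynucleotide (dNTP) supply (3) and the E-type cyclins (2).

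The samples are RNA sequencing libraries of the mouse leukaemia line PER-M60. In the first group 4 cultures were grown in control media, and in the second 4 were grown in osteoclast-conditioned media, media taken from bone-resorbing cells. The comparison asks how the second medium changes gene expression in the leukaemia cells. The labels give neither the length of exposure nor how the media were prepared, and they name 1 cell line with no genetic change in either group. They do not say that the 4 cultures of a group were set up separately, so p-values measure the spread between these samples, which may be technical.

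Total counts ran from 15391754 to 21637966 per culture, and a count of 3, taken as the limit of detection, corresponded to between 0.138 and 0.194 CPM, the unit of counts scaled to library size. The labels say only that the cells are leukaemic, so marker lists were read: 11 of 11 pre-B and B lineage markers passed the filter on low counts, and their summed level ran from 4748 to 4786 CPM in control medium and from 5016 to 5055 CPM in osteoclast-conditioned medium (2 called lower and 7 higher by the test described below, which called 14.8% of all tested genes lower and 15.7% higher), whose part in the results was not tested. None of 5 T lineage markers passed (summed level at most 0.175 CPM), and of 6 myeloid markers only Lyz2 did, at a mean of 4.46 CPM in control and 5.91 CPM in osteoclast-conditioned medium (called higher, edgeR adjusted p = 0.0119). The myeloid marker Itgam had 0 counts, but 99.1% of its exon bases lie within Gm49368, so this count says nothing of its expression. Of 10 osteoclast markers, 2 passed (Acp5 and Itgb3), the summed level was 35.8 to 37.2 CPM in control medium and 34.4 to 37.9 CPM in osteoclast-conditioned medium, and the fusion genes Dcstamp and Ocstamp had 0 counts in every culture. Itgb3 was lower (12.9 against 10.7 CPM, edgeR adjusted p = 0.0185) and Acp5 was not called (22.9 against 24.4 CPM). The part of these markers in the results was not tested.

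Replication is prepared in G1, when the origin recognition complex (ORC), Cdc6 and Cdt1 load the ring-shaped MCM2-7 helicase onto DNA, a step called licensing. On entry into S phase, cyclin E with its kinase and the Cdc7-Dbf4 kinase switch the loaded rings on, Cdc45 and the GINS complex join them, and polymerase alpha-primase, polymerase delta and polymerase epsilon copy the strands behind RPA and the PCNA clamp. Many of these genes are classical targets of E2F transcription factors and are transcribed most in late G1 and S phase, and proliferating lymphoid leukaemia cells express them at high levels.

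Because E2F sites are the textbook feature of such promoters, the letters of the members' promoters were searched. RefSeq promoter windows (GRCm38.p6), from 250 bases before to 50 bases after the start of transcription, were found for 38 of the 45 members. The words searched on both strands were TTTCCCGC, TTTCGCGC, TTTGCCGC and TTTGGCGC, the same words without their first T, so that each longer match is also a shorter one, and CCAAT, the core of the NF-Y site. The longer words were found in 14 of the 38 members (36.8%), against 2.60% of all 27025 genes with a window and 4.90% of the 8547 tested genes with one. The shorter forms were found in 24 members (63.2%), against 10.9% of all genes and 20.1% of tested genes. CCAAT was found in 23 members (60.5%), 41.1% of all genes and 43.6% of tested genes. A match describes letters only and is not a shown binding site.

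The 6 stretches below each hold the 170 bases before the start in the direction of the gene. They show the ring genes Mcm5, Mcm6 and Mcm7 and the loader gene Cdc6, whose windows hold the words, beside Rrm1 and Tyms, which make dNTPs. Capitals mark a match to the shorter E2F forms, with the leading T where present, or to CCAAT, read on either strand, and adjoining or overlapping matches run together.
Cdc6, chr11:98907981-98908150, plus strand: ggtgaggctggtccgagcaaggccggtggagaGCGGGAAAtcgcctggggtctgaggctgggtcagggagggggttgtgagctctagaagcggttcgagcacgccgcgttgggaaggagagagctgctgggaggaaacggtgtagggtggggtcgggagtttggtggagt
Mcm5, chr8:75109339-75109508, plus strand: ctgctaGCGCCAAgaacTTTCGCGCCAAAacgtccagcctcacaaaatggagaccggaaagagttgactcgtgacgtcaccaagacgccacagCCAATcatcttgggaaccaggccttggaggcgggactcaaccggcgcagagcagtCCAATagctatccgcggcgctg
Mcm6, chr1:128359706-128359875, minus strand: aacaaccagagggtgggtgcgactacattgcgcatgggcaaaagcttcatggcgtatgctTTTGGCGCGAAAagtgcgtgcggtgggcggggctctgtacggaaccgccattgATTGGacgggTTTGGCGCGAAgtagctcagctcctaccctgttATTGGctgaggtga
Mcm7, chr5:138171267-138171436, minus strand: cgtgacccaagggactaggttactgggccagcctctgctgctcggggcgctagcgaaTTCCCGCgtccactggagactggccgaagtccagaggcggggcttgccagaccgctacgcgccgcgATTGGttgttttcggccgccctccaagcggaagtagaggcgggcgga
Rrm1, chr7:102441525-102441694, plus strand: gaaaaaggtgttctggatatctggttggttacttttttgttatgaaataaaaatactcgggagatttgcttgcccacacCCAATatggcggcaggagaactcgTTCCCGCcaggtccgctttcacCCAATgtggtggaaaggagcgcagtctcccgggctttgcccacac
Tyms, chr5:30073626-30073795, minus strand: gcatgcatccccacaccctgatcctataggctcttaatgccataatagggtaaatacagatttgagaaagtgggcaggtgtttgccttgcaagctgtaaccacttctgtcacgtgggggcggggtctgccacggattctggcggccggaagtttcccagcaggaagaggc
The Mcm5 stretch held 3 matches to the shorter E2F forms and Mcm6 held 4, and each held 2 CCAAT matches. Mcm7, Cdc6 and Rrm1 held 1 E2F match each, and Tyms held none of these words in the stretch. The Cdc6 stretch lies before the downstream of its annotated starts, inside the span of the gene, and its first base is the last base of an annotated exon. Mcm7 has 2 windows in the table, and the stretch comes from the downstream one. The upstream one, not printed because its stretch overlaps annotated exons, held 2 longer words, 3 shorter matches and 3 CCAAT matches. By the calls made below, the shorter forms were found in 12 of 17 members called lower and in 12 of 21 not called, and the longer words in 6 of 17 and 8 of 21. The median log2 fold change was -0.086 over the 24 members with a shorter form and -0.059 over the 14 without. For the longer words it was -0.072 with and -0.083 without, and for CCAAT -0.067 with and -0.079 without, so the order of the medians differed between the words.

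The replication genes that changed in osteoclast-conditioned medium were lower, by small amounts, with a single exception. With edgeR's quasi-likelihood test and Benjamini-Hochberg adjustment over all 10729 tested genes, 21 of the 45 were lower and 1, Pole, was higher at an adjusted p under 0.05. That is 46.7% of the members lower, where 14.8% of all tested genes were lower and 15.7% higher. The members were chosen with earlier results of these data known, so this share was not tested. Of the other 23, 18 had a negative and 5 a positive log2 fold change. The median log2 fold change over the members was -0.079, against -0.0087 over all tested genes, and the members ran from -0.32 (Cdc7) to 0.089 (Pole). Without overlap between the media, 21 members were lower and 2 higher, where 12.9% and 15.2% of all tested genes were. Among the 21 called lower, 6 fell by more than 15%: Cdc7, Rpa3, Orc1, Ccne1, Rrm2 and Gins1. Of the 45, 0 passed a test against a 1.2-fold change. Of all 10729 tested genes, 66 were lower (0.615%) and 161 higher by that test. With total counts as the only scaling 30 members were lower and 1 higher. That scaling called 18.8% of all tested genes lower instead of 14.8%, and 40.7% of all calls were higher instead of 51.6%. In bulk RNA, fewer cells in S phase and less of these RNAs per cell cannot be told apart.

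**Figure D1:**
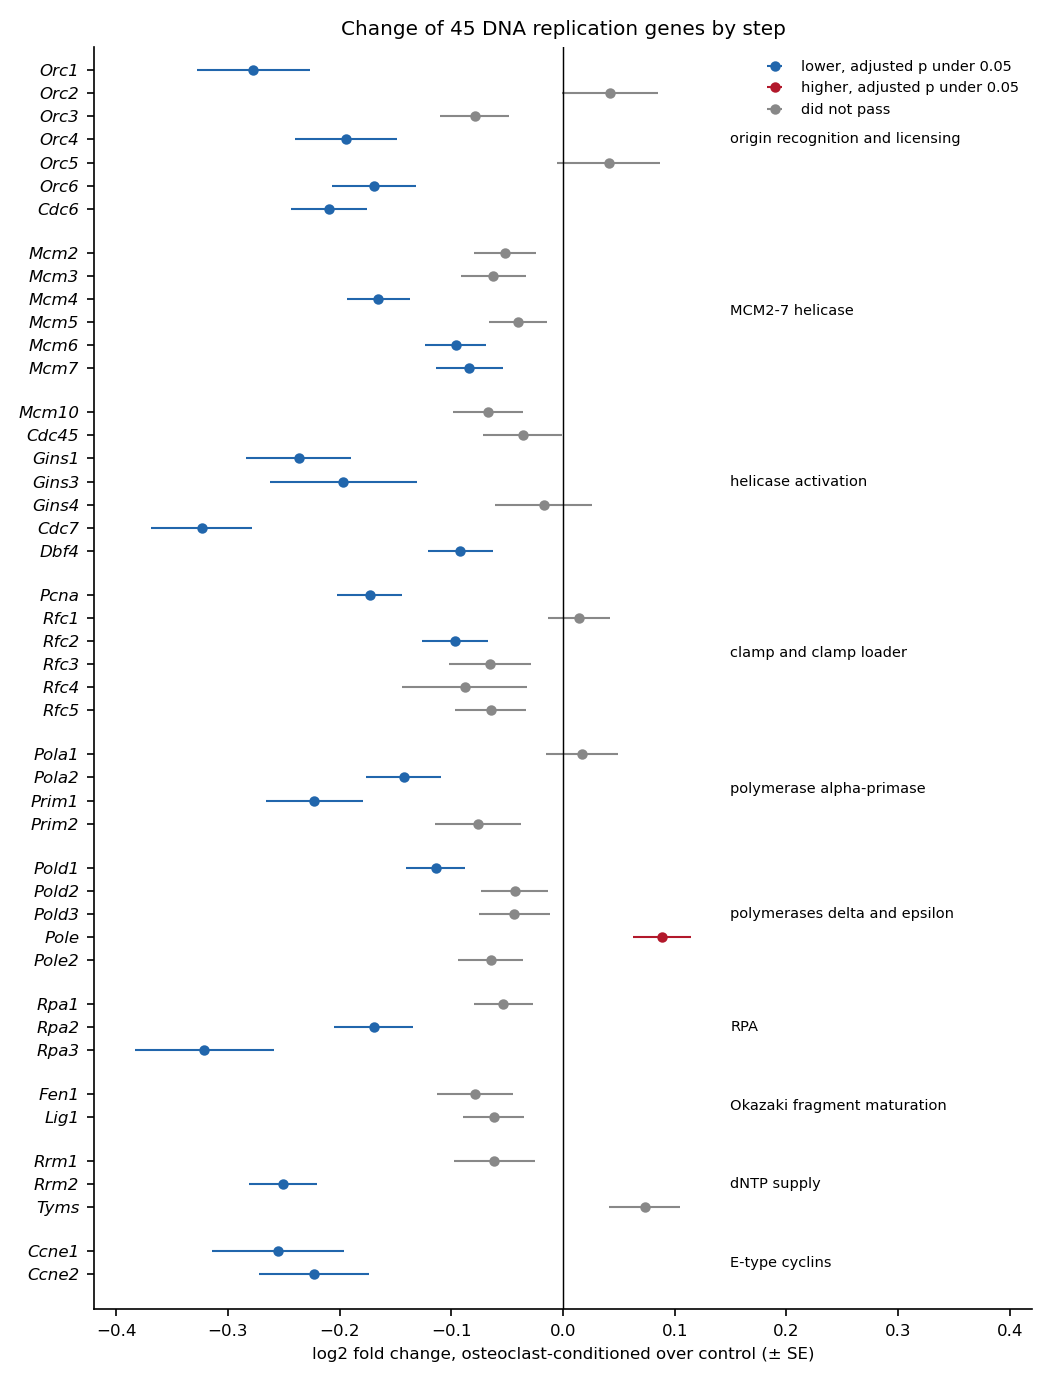
Log2 fold change (osteoclast-conditioned over control medium, 4 cultures each, bars ± SE) of the 45 replication genes by step, with blue for lower, red for higher and grey for genes that did not pass an edgeR adjusted p of 0.05. The 21 blue genes lie between -0.32 (Cdc7) and -0.084 (Mcm7), and Pole, at 0.089, is the 1 red gene.

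The median member was lower in each osteoclast-conditioned culture than in any control one. Relative to each gene's control mean, the median member stood at 99.97%, 101%, 101% and 97.7% in control replicates 1 to 4 and at 93.2%, 95.1%, 94.8% and 92.8% in osteoclast-conditioned replicates 1 to 4, so the groups did not overlap. Between 38 and 39 of the 45 members lay below their control mean in every osteoclast-conditioned culture, against 14 to 36 in the control cultures. Osteoclast-conditioned replicates 1 to 4 were the lowest of the 8 cultures for 10, 3, 8 and 18 members, and control replicates 1 to 4 the highest for 8, 15, 12 and 3. With osteoclast-conditioned replicate 4 and control replicate 2 left out, an alternative chosen after seeing the data, 21 members were called lower and 2 higher. Of all tested genes, 16.7% were lower in it. In that fit the Mcm7 call was lost (edgeR adjusted p = 0.314), and Pole2 (lower, 0.00388) and Tyms (higher, 0.0263) were called.

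**Figure D2:**
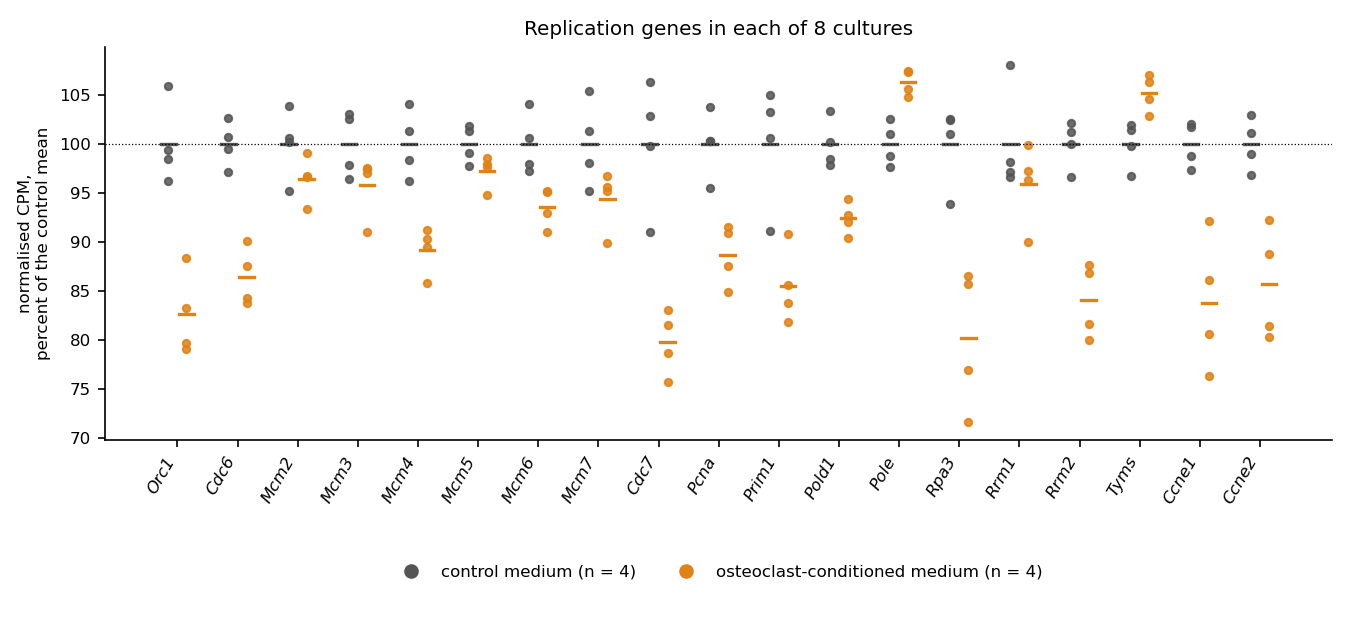
Normalised CPM as a percentage of the gene's control mean (vertical axis) for 19 replication genes in each culture, with dots for the 4 control (grey) and 4 osteoclast-conditioned (orange) cultures and lines for their means. Cdc7, Rpa3, Orc1 and Rrm2 separate by medium, Mcm2, Mcm3 and Mcm5 overlap, and Pole and Tyms sit above their control mean in all 4 osteoclast-conditioned cultures.

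Origin recognition and licensing had 4 of its 7 genes lower and 0 higher, with a median log2 fold change of -0.17. Orc1 (ENSMUSG00000028587, chr4:108579423-108614833, plus strand), the ATP-binding subunit that rises in G1 and nucleates ORC on DNA, read 35.4, 35.8, 34.6 and 38.1 CPM in control replicates 1 to 4 and 28.4, 28.7, 29.96 and 31.8 CPM in osteoclast-conditioned replicates 1 to 4. Every control culture was above every osteoclast-conditioned one. The means were 36.0 ± 1.49 and 29.7 ± 1.54 CPM (SD, n = 4), a log2 fold change of -0.28 (SE 0.050) at an edgeR adjusted p of 8.45e-05, or a level that fell by 17.5%. Cdc6 (ENSMUSG00000017499, chr11:98907801-98923940, plus strand), the ATPase that joins ORC to load MCM2-7, stood at 105, 102, 103 and 99.5 CPM in control and 89.7, 92.4, 85.9 and 86.4 CPM in osteoclast-conditioned cultures, again without overlap. Its means of 102 ± 2.38 and 88.6 ± 3.04 CPM (SD, n = 4) gave a log2 fold change of -0.21 (SE 0.034) at an edgeR adjusted p of 1.77e-05. Orc4, a core subunit of the complex, and Orc6, its smallest subunit, were also lower, at -0.19 for Orc4 (edgeR adjusted p = 0.00149) and -0.17 for Orc6 (edgeR adjusted p = 0.000857).

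The remaining ORC subunits did not pass. Orc3 had a log2 fold change of -0.079 (SE 0.031) at an edgeR adjusted p of 0.0516, and its control cultures (117 to 122 CPM) all lay above its osteoclast-conditioned ones (111 to 116 CPM). It was called lower without control replicate 3 (edgeR adjusted p = 0.0411), with a filter at a mean of 50 counts (0.0489) and with total-count scaling (0.0118). Orc2 and Orc5 had positive values, at 0.042 for Orc2 (edgeR adjusted p = 0.494) and 0.041 for Orc5 (edgeR adjusted p = 0.537), with overlapping groups. Of the exon bases of Orc2, 76.5% lie within the span of Nif3l1, so reads of these genes could have been split or dropped. On the level per kilobase of the principal transcript, control cells held 51.8 CPM of Orc3 and 49.7 of Orc6, but 21.8 of Orc5, 13.7 of Orc4, 11.9 of Orc1 and 11.8 of Orc2. Orc3 and Orc6 were thus the most abundant transcripts of the complex by this measure, and the levels of Orc1 and Orc2 overlapped in control cultures. In osteoclast-conditioned cultures Orc1, at 9.86 CPM per kilobase, lay below Orc2, at 12.2, in every culture.

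The MCM2-7 ring had all 6 genes on the negative side, 3 of them called lower. Mcm4 (ENSMUSG00000022673, chr16:15623897-15637400, minus strand), one of the subunits of the ring's catalytic core, read 395, 418, 407 and 387 CPM in control and 363, 367, 359.8 and 345 CPM in osteoclast-conditioned replicates 1 to 4. The media did not overlap, and the change was the largest of the ring. Means of 402 ± 13.8 and 359 ± 9.56 CPM (SD, n = 4) gave a log2 fold change of -0.17 (SE 0.028) at an edgeR adjusted p of 3.92e-05. Mcm6 (ENSMUSG00000026355, chr1:128331590-128359664, minus strand), which pairs with Mcm4 in that core, read 660.2, 683, 638 and 643 CPM in control and 610.3, 624, 625 and 597 CPM in osteoclast-conditioned cultures. These groups did not overlap either, and the means of 656 ± 20.4 and 614 ± 13.1 CPM (SD, n = 4) gave a log2 fold change of -0.096 (SE 0.027) at an edgeR adjusted p of 0.00704. Mcm7 (ENSMUSG00000029730, chr5:138164583-138172422, minus strand), the third member of the core, whose introns host a miRNA cluster, stood at 662, 689, 641 and 622 CPM and 632, 622, 625 and 588 CPM. Here the groups overlapped, since control replicate 4 lay below osteoclast-conditioned replicates 1 and 3 and was level with replicate 2. The means of 653 ± 28.6 and 617 ± 19.9 CPM (SD, n = 4) gave a log2 fold change of -0.084 (SE 0.030) at an edgeR adjusted p of 0.035. The Mcm7 call was lost without control replicate 1 (adjusted p = 0.113), control replicate 2 (0.102) or osteoclast-conditioned replicates 2 (0.0664), 3 (0.0577) or 4 (0.128), and once GC content and exon length were corrected for (0.0743), each by edgeR, and the adjusted p ran from 0.00576 to 0.314 over the alternatives. Here and below, such ranges leave out the test against a 1.2-fold change, in which no member was called.

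The other ring subunits, which form its gate and regulatory side, did not pass. Mcm2 (ENSMUSG00000002870, chr6:88883474-88898780, minus strand) read 509, 527, 511 and 484 CPM in control and 503, 491, 491 and 474 CPM in osteoclast-conditioned cultures, with means of 508 ± 18.1 and 489.7 ± 11.7 CPM (SD, n = 4) and a log2 fold change of -0.052 (SE 0.028) at an edgeR adjusted p of 0.168. Mcm3 (ENSMUSG00000041859, chr1:20802968-20820312, minus strand) read 462, 484, 486 and 455 CPM and 458, 459.8, 460.3 and 429 CPM, with means of 472 ± 15.7 and 452 ± 15.1 CPM (SD, n = 4) and a log2 fold change of -0.062 (SE 0.029) at an edgeR adjusted p of 0.104. Mcm5 (ENSMUSG00000005410, chr8:75109569-75128439, plus strand) read 405, 414, 416 and 399 CPM and 403, 400.3, 399 and 387 CPM, with means of 409 ± 7.93 and 397 ± 6.97 CPM (SD, n = 4) and a log2 fold change of -0.040 (SE 0.026) at an edgeR adjusted p of 0.258. All 3 overlapped between the media. The ring genes were among the most abundant members. Per kilobase of principal transcript, control cells held 225 CPM of Mcm6, 221 of Mcm7, 156 of Mcm3, 151 of Mcm2, 121 of Mcm5 and 112 of Mcm4, so the scarcest ring transcript by this measure was the one that fell most.

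Helicase activation had 4 of 7 genes lower and 0 higher. Cdc7 (ENSMUSG00000029283, chr5:106964322-106984432, plus strand), the kinase that phosphorylates the loaded MCM ring, showed the largest fall of all 45 members. It read 71.8, 61.4, 67.3 and 69.4 CPM in control and 51.1, 53.1, 55.0 and 56.1 CPM in osteoclast-conditioned replicates 1 to 4. Control replicate 2 was the lowest control culture, and it still lay above the highest osteoclast-conditioned one. The means were 67.5 ± 4.44 and 53.8 ± 2.20 CPM (SD, n = 4), with a log2 fold change of -0.32 (SE 0.045) at an edgeR adjusted p of 2.23e-06, a fall of the level by 20.1%. Dbf4, the subunit that activates Cdc7, was more abundant per kilobase (82.1 against 21.6 CPM in control cells) and was lower at -0.092 (edgeR adjusted p = 0.015, 0.00209 to 0.0534 over the alternatives). The Dbf4 call did not hold without control replicate 3 (edgeR adjusted p = 0.0534) or without osteoclast-conditioned replicate 3 (0.0521) or 4 (0.0525).

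Of the GINS genes, whose products join Cdc45 and MCM2-7 in the active helicase, Gins1 was lower in each osteoclast-conditioned culture (36.6 to 41.7 CPM against 45.1 to 48.9), with a log2 fold change of -0.24 (SE 0.047) at an edgeR adjusted p of 0.000228. Gins3, the member with the fewest CPM (a control mean of 21.02), had a log2 fold change of -0.20 (SE 0.066) at an edgeR adjusted p of 0.0226, and its groups overlapped. Its call was lost without control replicate 1 (edgeR adjusted p = 0.0614) or 3 (0.0635), without osteoclast-conditioned replicate 1 (0.0954) or 3 (0.11), with DESeq2 (0.0569), and on counts thinned to the smallest total (0.0595, and 0.0742 with the replicate block), in a range of 0.00642 to 0.11 over the alternatives. Gins4, at -0.017 (edgeR adjusted p = 0.801), Cdc45, the helicase partner (-0.036, 0.471), and Mcm10, which helps the helicase fire (-0.067, 0.108), did not pass. After correction for GC and exon length Mcm10 was called lower, at -0.095 (edgeR adjusted p = 0.0219, and 0.0197 with the replicate block).

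At the clamp and its loader, 2 of 6 genes were lower and 0 higher. Pcna (ENSMUSG00000027342, chr2:132249162-132253314, minus strand), the ring that tethers polymerases to DNA, was the most abundant member per kilobase, at 308 CPM in control and 273 CPM in osteoclast-conditioned cells. Its CPM were 469, 486, 469 and 447 in control and 425, 428, 409.5 and 397 in osteoclast-conditioned replicates 1 to 4, without overlap. The means of 468 ± 15.9 and 415 ± 14.5 CPM (SD, n = 4) gave a log2 fold change of -0.17 (SE 0.029) at an edgeR adjusted p of 3.16e-05. The annotation names the pseudogenes Pcna-ps1 and Pcna-ps2, with which its reads could be shared. Of the replication factor C genes, which encode the complex that opens the clamp, Rfc2 was lower at -0.097 (edgeR adjusted p = 0.0137), a call lost without control replicate 1 (edgeR adjusted p = 0.0527) or osteoclast-conditioned replicate 1 (0.0773), with a range of 0.0027 to 0.0773 over the alternatives. Of the Rfc2 exon bases, 28.3% lie within another listed gene. The values of the large subunit and of the remaining small ones, which did not pass, were 0.015 for Rfc1 (edgeR adjusted p = 0.731), -0.066 for Rfc3 (edgeR adjusted p = 0.182), -0.088 for Rfc4 (edgeR adjusted p = 0.251) and -0.065 for Rfc5 (edgeR adjusted p = 0.121).

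Polymerase alpha-primase, which lays down the RNA-DNA primers, had 2 of 4 genes lower. Prim1 (ENSMUSG00000025395, chr10:128015168-128030037, plus strand), the catalytic primase subunit, read 77.0, 67.9, 78.3 and 75.0 CPM in control and 60.99, 62.5, 63.8 and 67.7 CPM in osteoclast-conditioned replicates 1 to 4. The lowest control culture, replicate 2, lay just above the highest osteoclast-conditioned one, replicate 4, so the groups did not overlap. The means of 74.6 ± 4.62 and 63.8 ± 2.90 CPM (SD, n = 4) gave a log2 fold change of -0.22 (SE 0.043) at an edgeR adjusted p of 0.000235. Pola2, the accessory B subunit, was lower at -0.14 (edgeR adjusted p = 0.00152). Pola1, the catalytic polymerase subunit, and Prim2, the large primase subunit, did not pass, at 0.017 for Pola1 (edgeR adjusted p = 0.728) and -0.076 for Prim2 (edgeR adjusted p = 0.141).

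Among the genes of the leading- and lagging-strand polymerases, the catalytic subunits went opposite ways. Pold1 (ENSMUSG00000038644, chr7:44532746-44548849, minus strand), the catalytic subunit of polymerase delta, read 413, 400.4, 391 and 394 CPM in control and 361, 368, 377 and 371 CPM in osteoclast-conditioned replicates 1 to 4, without overlap. Means of 399.6 ± 9.93 and 369 ± 6.65 CPM (SD, n = 4) gave a log2 fold change of -0.11 (SE 0.026) at an edgeR adjusted p of 0.00131. Pole (ENSMUSG00000007080, chr5:110286306-110337474, plus strand), the catalytic subunit of polymerase epsilon, was the only member called higher. It read 335, 339, 352 and 347 CPM in control and 369, 360.2, 369 and 363 CPM in osteoclast-conditioned replicates 1 to 4, and every osteoclast-conditioned culture was above every control one. Its means of 344 ± 7.60 and 365 ± 4.48 CPM (SD, n = 4) gave a log2 fold change of 0.089 (SE 0.026) at an edgeR adjusted p of 0.00957. The Pole call did not hold once an offset on GC content and exon length was fitted, where its log2 fold change was 0.025 (edgeR adjusted p = 0.534, and 0.527 with the replicate block, in a range of 0.00426 to 0.534 over the alternatives). Pole has the longest merged exons of the members, 11160 bases. Pold2, Pold3 and Pole2, accessory subunits of the same enzymes, did not pass, at -0.043, -0.043 and -0.065 (edgeR adjusted p = 0.3, 0.325 and 0.0976). Leaving out control replicate 3 or osteoclast-conditioned replicate 4 gave Pole2 an edgeR adjusted p of 0.0351 or 0.0132.

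RPA, the trimer that coats single-stranded DNA, had 2 of 3 genes lower. Rpa3 (ENSMUSG00000012483, chr6:8255936-8259173, minus strand), the smallest subunit, read 25.9, 25.5, 25.9 and 23.7 CPM in control and 19.4, 21.9, 18.1 and 21.6 CPM in osteoclast-conditioned replicates 1 to 4, without overlap. Means of 25.2 ± 1.05 and 20.3 ± 1.81 CPM (SD, n = 4) gave a log2 fold change of -0.32 (SE 0.062) at an edgeR adjusted p of 0.00019, a fall of the level by 19.9%. Rpa2, the middle subunit, was lower at -0.17 (edgeR adjusted p = 0.000446). Rpa1, the large DNA-binding subunit, did not pass, at -0.053 (edgeR adjusted p = 0.134). For Okazaki fragment maturation the values were -0.079 for Fen1 (edgeR adjusted p = 0.079), the flap nuclease, and -0.062 for Lig1 (edgeR adjusted p = 0.0867), the ligase, and 0 of 2 passed. Leaving out 1 control culture brought each under 0.05: Fen1 without replicate 3 (edgeR adjusted p = 0.0329) and Lig1 without replicate 2 (0.038).

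In dNTP supply 1 of 3 genes was lower, Rrm2 (ENSMUSG00000020649, chr12:24708241-24714146, plus strand). It encodes the small, S-phase-limited subunit of ribonucleotide reductase, the enzyme that makes deoxynucleotides from ribonucleotides. Its level was 257, 260.1, 263 and 248 CPM in control and 225, 223, 209.8 and 206 CPM in osteoclast-conditioned replicates 1 to 4. The groups were far apart relative to their spread, and Rrm2 had the smallest p-value of all members. Means of 257 ± 6.19 and 216 ± 9.72 CPM (SD, n = 4) gave a log2 fold change of -0.25 (SE 0.031) at an edgeR adjusted p of 2.04e-07, a fall of the level by 15.9%. Rrm1 (ENSMUSG00000030978, chr7:102441695-102469771, plus strand), the large subunit that is present through the cycle, read 642, 715, 649 and 639 CPM in control and 643, 661, 637 and 595 CPM in osteoclast-conditioned cultures. Control replicate 2 was the highest and osteoclast-conditioned replicate 4 the lowest, and the other cultures overlapped. Means of 661 ± 35.9 and 634 ± 27.9 CPM (SD, n = 4) gave a log2 fold change of -0.061 (SE 0.036) at an edgeR adjusted p of 0.224. With those 2 libraries left out the Rrm1 log2 fold change was 0.0099 (edgeR adjusted p = 0.779), and after the offset for GC and exon length it was -0.10 (0.0227), within a range of adjusted p of 0.00379 to 0.779 over the alternatives.

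Tyms (ENSMUSG00000025747, chr5:30058202-30073617, minus strand), thymidylate synthase, which makes the thymidine nucleotide, read 104, 104, 102 and 98.9 CPM in control and 109, 109, 107 and 105 CPM in osteoclast-conditioned replicates 1 to 4. Every osteoclast-conditioned culture was above every control one, but the means of 102 ± 2.37 and 108 ± 1.93 CPM (SD, n = 4) gave a log2 fold change of 0.073 (SE 0.032) at an edgeR adjusted p of 0.0815, which did not pass. On counts thinned to the smallest total the edgeR adjusted p was 0.0388, and it ran from 0.0263 to 0.21 over the alternatives. A pseudogene, Tyms-ps, is annotated, with which its reads could be shared.

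Both E-type cyclins, the partners of Cdk2 at the entry to S phase, were lower. Ccne1 (ENSMUSG00000002068, chr7:38097984-38107534, minus strand) read 26.0, 24.9, 25.2 and 26.1 CPM in control and 20.6, 23.5, 22.0 and 19.5 CPM in osteoclast-conditioned replicates 1 to 4, without overlap. Means of 25.5 ± 0.587 and 21.4 ± 1.75 CPM (SD, n = 4) gave a log2 fold change of -0.26 (SE 0.059) at an edgeR adjusted p of 0.00134. Ccne2 (ENSMUSG00000028212, chr4:11191351-11204779, plus strand) read 40.9, 41.6, 40.0 and 39.1 CPM in control and 37.3, 35.9, 32.4 and 32.9 CPM in osteoclast-conditioned cultures, again without overlap. Its means of 40.4 ± 1.08 and 34.6 ± 2.34 CPM (SD, n = 4) gave a log2 fold change of -0.22 (SE 0.049) at an edgeR adjusted p of 0.00081. Of the Ccne2 exon bases, 62.9% lie within the span of Ints8, so its level is uncertain. Over the 38 members with under 10% of their exon bases inside another listed gene, 18 were called lower and 1 higher.

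Since subunits of a complex work in fixed proportions, the ratio of each pair of members within a complex was computed per culture and compared by a two-sided exact permutation test. The pair of E-type cyclins was included, although these are alternative partners of Cdk2 and not subunits of one complex. This comparison was chosen after seeing the data. In 20 of 59 pairs (33.9%) the media did not overlap, where 31.5% of the remaining 931 pairs of members and 26.3% of all pairs of tested genes did not, so the share was close to that of other pairs of members. The 20 pairs were each at an exact permutation p of 0.0286, the smallest value that 4 against 4 cultures allow. The smallest p adjusted over the 59 pairs was 0.0843, so none passed 0.05. No single pair could have passed alone, since 0.0286 adjusted over 59 pairs passes 0.05 only where many pairs reach that value together. The ratio of Rrm1 to Rrm2 was 2.57 in control and 2.94 in osteoclast-conditioned medium, that of Rpa1 to Rpa3 was 13.2 and 15.9, and that of Orc1 to Orc2 was 0.856 and 0.685 (ratios of CPM, not of molecules). In the MCM ring the 5 pairs without overlap were those that include Mcm4, such as Mcm4 to Mcm5 (0.984 and 0.902). ORC gave 9 of 15 pairs. Pairs of one complex share subunits, so their counts are not separate results, and no matching share was computed per complex. No pair of polymerase alpha-primase separated, nor did the Cdc7 to Dbf4 ratio (0.341 and 0.291, exact permutation p = 0.0571), the Pole to Pole2 ratio (0.735 and 0.817, p = 0.0571) or the Ccne1 to Ccne2 ratio (0.632 and 0.618, p = 0.686). Leaving out a culture can only keep or raise the number of pairs without overlap, and without osteoclast-conditioned replicate 4 it was 31. The share over other pairs was not computed for that omission.

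**Figure D3:**
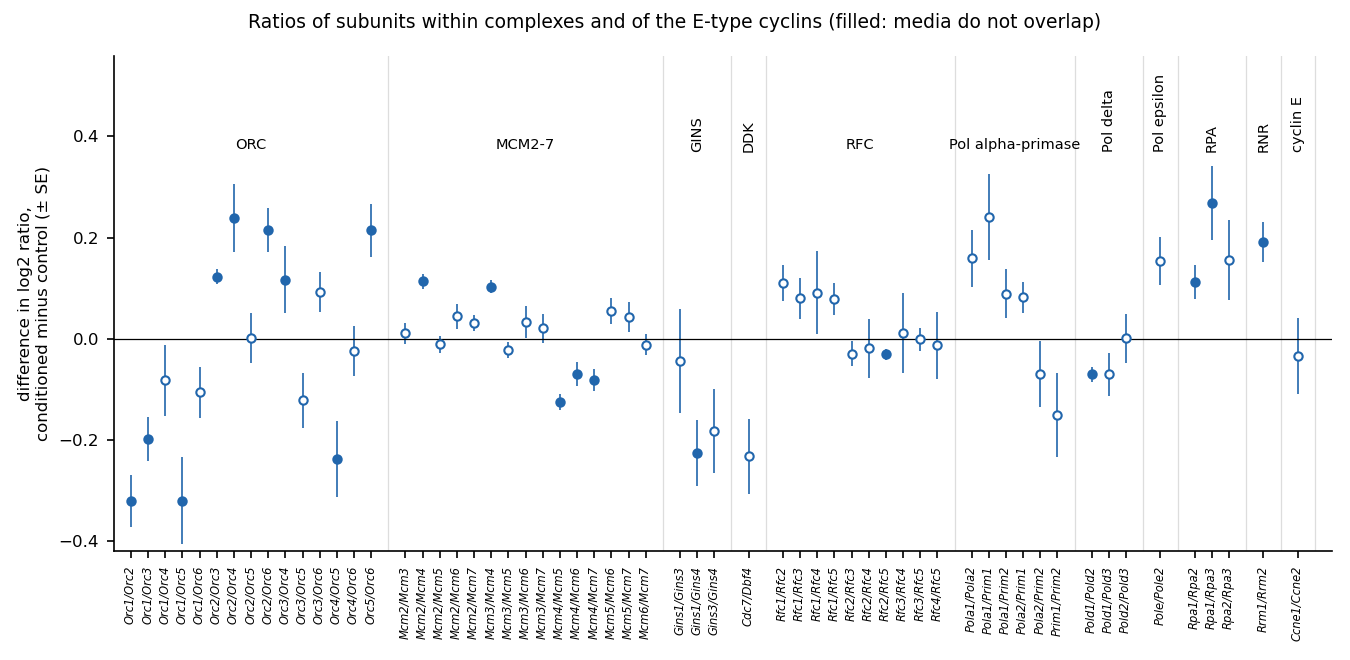
Difference in the log2 ratio of CPM between subunits of the same complex, or the alternative cyclins Ccne1 and Ccne2, osteoclast-conditioned minus control medium (vertical axis, bars ± SE over 4 and 4 cultures), for 59 pairs grouped by complex (DDK, Cdc7-Dbf4 kinase, and RNR, ribonucleotide reductase). The 20 filled pairs do not overlap between the media, among them Rrm1 to Rrm2, Rpa1 to Rpa3 and the 5 MCM pairs with Mcm4.

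The log2 fold changes were also set against the length and level of each gene. Across the 45 members, Spearman's rho between the log2 fold change and merged exon length was 0.387, and it was 0.342 with the control CPM and 0.181 with GC content. Across all tested genes the values were 0.181, 0.084 and 0.0025. Genes of one library share its depth and composition and are not independent, so no p is given. Of the 11 members under 60 CPM in control medium 7 were called lower, of the 18 from 60 to 200 CPM 8 were, and of the 16 at or above 200 CPM 6 were, with 1 higher. The share of all tested genes called in each class was not computed, so these counts do not show a relation to level. The median control level was 131 CPM over the members and 37.4 CPM over all tested genes. The 14.8% of all tested genes called lower is thus not matched on level. After the offset for GC and exon length 22 members were called lower and 0 higher, where 14.5% of all tested genes were lower.

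**Figure D4:**
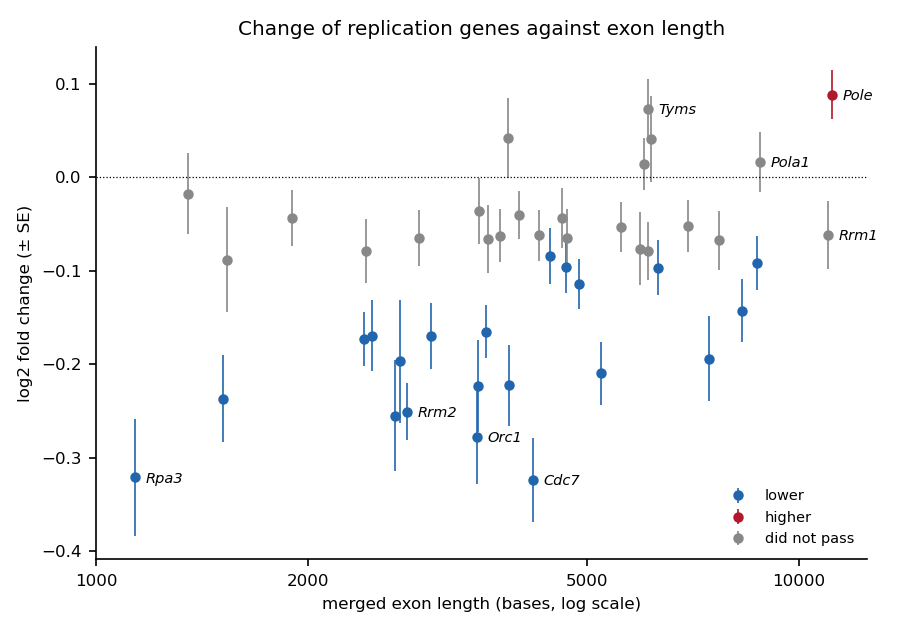
Log2 fold change (osteoclast-conditioned over control, bars ± SE) of the 45 members against merged exon length in bases on a log axis, coloured by call. The 2 shortest genes, Rpa3 (-0.32, 1136 bases) and Gins4 (-0.017, 1349 bases), lie far apart, and Pole, with 11160 bases the longest, lies highest (0.089).

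Other genes of replication, listed beside the members, were more often called lower than higher. Of 69 further gene IDs for loading and firing factors, polymerase accessory subunits, fork factors, dNTP enzymes, replication-coupled chromatin proteins and E2F factors, 61 passed the filter, 17 were lower (27.9%, against 14.8% of all tested genes) and 4 higher (6.56%, against 15.7%), with a median log2 fold change of -0.050. Gmnn, encoding geminin, the inhibitor of licensing, was lower at 36.3 ± 1.62 against 31.8 ± 1.605 CPM (SD, n = 4), with a log2 fold change of -0.19 (SE 0.050) at an edgeR adjusted p of 0.00496. Asf1b, a histone chaperone at the fork, was lower with a log2 fold change of -0.17 (SE 0.032) at an edgeR adjusted p of 0.000112, and Top1, the topoisomerase that relaxes DNA ahead of the fork, with a log2 fold change of -0.17 (SE 0.030) at an edgeR adjusted p of 5.74e-05. The list of 12 E2F and S-phase entry genes (E2f1 to E2f8, Tfdp1, Tfdp2, Dtl and Fbxo5) had 2 lower (16.7%), E2f2 (-0.14) and Tfdp1 (-0.11), and 1 higher (8.33%), a share of lower calls near the 14.8% of all tested genes. Without overlap between the media 5 of the 12 were lower (41.7%, against 12.9% of all tested genes), and the median log2 fold change of the list was -0.070. The higher gene was Tfdp2, a dimer partner of E2F (0.15, edgeR adjusted p = 0.00396, and 0.154 after the offset, the range over the alternatives being 0.000367 to 0.154).

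The dNTP enzymes outside the members held the largest rises. Rrm2b, the p53-inducible small subunit of ribonucleotide reductase that serves cells outside S phase, read 37.5, 40.1, 38.8 and 36.5 CPM in control and 47.5, 54.0, 51.9 and 47.4 CPM in osteoclast-conditioned replicates 1 to 4. All osteoclast-conditioned cultures lay above the control ones, with means of 38.2 ± 1.56 and 50.2 ± 3.29 CPM (SD, n = 4) and a log2 fold change of 0.39 (SE 0.048) at an edgeR adjusted p of 2.43e-07. As a description chosen after seeing the data, the ratio of Rrm2b to Rrm2 was 0.149 in control and 0.232 in osteoclast-conditioned medium. Tk2, the mitochondrial thymidine kinase, was higher at 17.4 ± 0.480 against 14.1 ± 0.368 CPM (SD, n = 4), with a log2 fold change of 0.29 (SE 0.064) at an edgeR adjusted p of 0.000698. Lower were Dtymk (-0.15), Dut (-0.14) and Umps (-0.12), enzymes of pyrimidine nucleotide synthesis, and Samhd1 (-0.14), which degrades dNTPs, each at an edgeR adjusted p of at most 0.00312.

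Beside these, 27 of 29 tested mitotic genes were lower (93.1%, against 14.8% of all tested genes) and 1, Ndc80, higher (3.45%, against 15.7%), with a median log2 fold change of -0.17, against -0.0087 over all tested genes. Among them were Cenpa (-0.40), Ccnb2 (-0.27) and Cdk1 (-0.26). The lists of other replication genes and mitotic genes were also chosen with earlier results of these data known. The part of the mitotic genes' change in the replication genes' values was not tested.

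**Figure D5:**
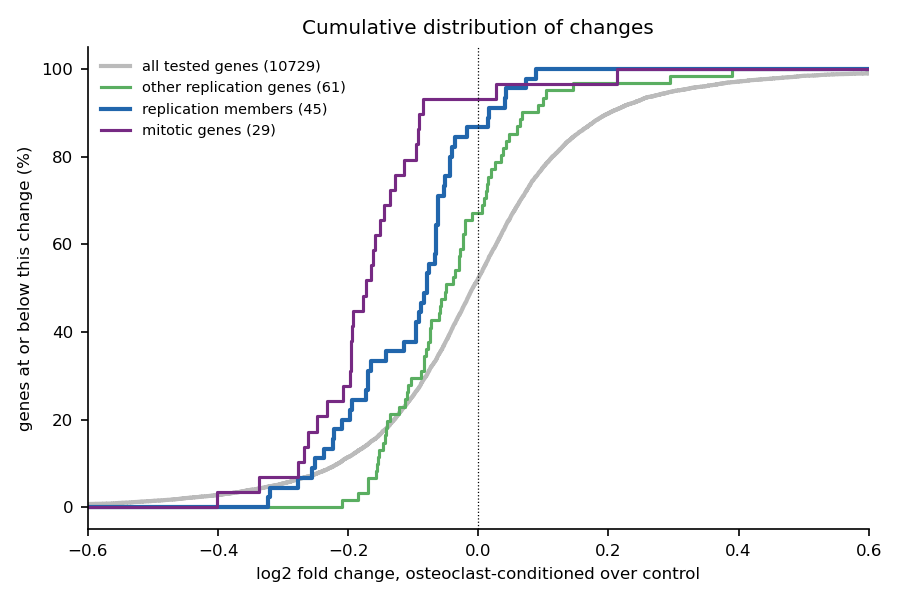
Cumulative percentage of genes (vertical axis) at or below each log2 fold change, osteoclast-conditioned over control (horizontal axis), for all 10729 tested genes (grey), 61 other replication genes (green), the 45 replication members (blue) and 29 mitotic genes (purple). The blue line crosses its median at -0.079 and the purple line at -0.17, left of the grey line at -0.0087.

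Cdt1, which loads MCM2-7 with Cdc6, Gins2, a further GINS subunit, and Tk1, the S-phase thymidine kinase, were left out of the members because they had 0 counts in all 8 cultures. The span of each lies wholly within that of other listed genes, so a count of 0 says nothing of their expression. The same holds for Pclaf, a partner of PCNA, with 0 counts and a span inside that of Trip4.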

How the data were processed

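RNA from 8 cultures was extracted with a column kit and made into libraries with the SureSelect HS2 kit, per the labels' protocols. The values deposited by the authors are whole-number counts per Ensembl gene, with no normalization. STAR 2.7.5a, featureCounts 2.0.1 and the mm10 build are named per the submitters' processing notes. Their settings, the annotation, the use of strand and the use of molecular barcodes are not given in the sources used here, so antisense and overlapping genes cannot be told apart. Each column was assigned to a culture through the number in the sample description, with 0 unmatched.

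Symbols, positions and exon lengths came from GENCODE M21 on GRCm38 (21817 of 21859 IDs matched), which may differ from the authors' annotation, and promoter windows from RefSeq (GRCm38.p6). Counts passing filterByExpr (10729 genes) were scaled by TMM and tested with edgeR 4.0.16 (glmQLFit, robust, and glmQLFTest) in R 4.3.3, with medium as the term, Benjamini-Hochberg adjustment over all tested genes and a threshold of 0.05. CPM are TMM-scaled, and the SE is the absolute log2 fold change divided by the square root of F. The script was tested on simulated data. The common biological coefficient of variation was 0.0304. Levels per kilobase use the longest APPRIS principal transcript. The detection limit covers counting error only.

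The members and gene lists were chosen with earlier results of these data known. Named with all values were, per step, the called member with the largest change and that with the smallest p, members called higher, and Cdc6, Mcm2 to Mcm7, Pcna, Rrm1, Rrm2, Tyms, Ccne1 and Ccne2. Of the other replication genes, the 3 called ones with the largest change in each direction were named. Other genes were named after their values were seen. The alternatives were other scalings, filters and tests (DESeq2 1.42.0, limma 3.58.1), thresholds, thinned counts, an offset by loess (span 0.5) on GC content and exon length, the replicate block and leaving out each culture. Ratios, promoter words and the joint omission of 2 libraries were chosen after seeing the data. Ratios and figures were made in Python 3.11.15 (scipy 1.17.1, matplotlib 3.10.9).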

Additional observations from a re-analysis of the deposited data

Results flagged for a closer look

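Each of the 45 members and 6 named other genes was examined in both media, 102 groups of 4 cultures, for 1 culture far from the other 3 by Dixon's criterion. In 6 groups a culture stood apart, and chance flags about 1 in 20 groups, here 5.1. Mcm3, an MCM ring gene, read 429 CPM in osteoclast-conditioned replicate 4, below the other 3 cultures (458 to 460.3 CPM). Rrm1, the large subunit of ribonucleotide reductase, read 715 CPM in control replicate 2, above the others (639 to 649 CPM). Rfc1, the large clamp loader subunit, read 442 CPM in control replicate 3, above 418 to 421 CPM. Orc4 read 43.5 CPM in osteoclast-conditioned replicate 3, below 49.8 to 50.9 CPM, and Orc5 read 49.9 CPM in osteoclast-conditioned replicate 2, above 46.2 to 46.7 CPM. Pola2, the accessory subunit of polymerase alpha, read 135 CPM in osteoclast-conditioned replicate 4, above 132.3 to 132.6 CPM.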

How the results depend on the processing

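The 21 members called lower and 1 called higher held their direction under every alternative run. Against a 1.2-fold change 0 members and 0 other replication genes were called in either direction. Of all 10729 tested genes, that test called 66 lower and 161 higher. The number of members called higher was 2 on thinned counts, with and without the replicate block, and 2 without control replicate 2 and osteoclast-conditioned replicate 4, where Tyms joined Pole. It was 0 with the offset on GC content and exon length, with and without the block, under which the other replication genes called higher numbered 2 instead of 4. Rrm1 turned to 0.0099 (adjusted p = 0.779) without those 2 libraries (-0.079 to -0.021 with 1 culture left out), and the cause was not tested. With total counts as the only scaling 30 members were called lower, the median member stood at -0.10, and the higher share of all calls was 40.7% instead of 51.6%. Over all tested genes 18.8% were lower under that scaling, with a median log2 fold change of -0.030. Leaving out 1 culture at a time gave 18 to 22 members lower, 1 higher, 13 to 19 other replication genes lower and 4 to 5 higher, a median of -0.095 to -0.066, and 20 to 31 subunit pairs without overlap, a number that omission cannot lower. In those fits 11.3% to 16.0% of all tested genes were lower. Of the 21 lower calls, 17 held in all fits apart from the stricter thresholds, and the others were Mcm7, Gins3, Rfc2 and Dbf4. At an adjusted p under 0.01, 17 members were lower, as were 8.84% of all tested genes.

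With the replicate number as a block, 21 members were lower and 1 higher, and 17 and 4 of the other replication genes, the same counts as without it. Over all tested genes 15.7% were lower with the block, and 15.5% with the offset and the block. Added to the offset, the block moved the members called lower from 22 to 24, with Mcm2 called (edgeR adjusted p = 0.039) and Mcm7 called again, and the other genes called lower from 16 to 18. Added to the thinning, it moved the latter from 16 to 15. The deviations of same-numbered cultures correlated by 0.037 on average (-0.051 to 0.14) and 3 of 8 cultures correlated best with their own number, so the numbers were not taken to pair the samples. Changes of a few percent rest on the small spread between these cultures, and members without a call are not shown to be equal in the media.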
